A study of Mus musculus with 10 samples.

Results

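The genes described are 10 that are widely used to detect macrophages in mouse tissue, namely *Adgre1*, *Csf1r*, *Cx3cr1*, *Cd68*, *C1qa*, *C1qb*, *C1qc*, *Mrc1*, *Itgax* and *Lyz2*. They were chosen by symbol from the 35275 Ensembl gene IDs counted in each library, and all 10 were among the 15610 genes that passed the filter on low counts. RNA-seq was carried out on tissue labelled as proximal intestine from 5 WT mice and 5 KO mice lacking the metal transporter gene *Zip14* (*Slc39a14*), with 1 library per mouse, and the sample labels give an age of 8 to 10 weeks for both groups. The study's methods describe the sequenced KO mice as whole-body knockouts and their controls as wild-type animals of one strain with them, both bred from heterozygous parents, whereas the series title names a deletion in enterocytes. Which deletion the libraries carry cannot be told from the counts, and the group is called KO here. The sex of the single mice and their litters are not given in the labels.

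Macrophages of the intestinal wall are kept by monocytes that arrive from the blood and mature under the receptor Csf1r, which binds the growth factors Csf1 and Il34. They take up dead cells and microbes in the lamina propria below the epithelium and in the muscle layer. C1q, the first component of the classical complement pathway, is a complex of chains encoded by *C1qa*, *C1qb* and *C1qc*, and in most tissues it is made by macrophages and not by the liver, which supplies most other complement proteins.

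Levels are given as CPM, the counts of a gene scaled to the TMM-adjusted size of its library, and a fold change is the log2 ratio of KO to WT from edgeR's quasi-likelihood model, with a gene called where the adjusted p was under 0.05. By that test 3 of the 10 genes, *Itgax*, *Csf1r* and *Cx3cr1*, were lower in KO mice, where 13.9% of all genes tested were called lower and 29.9% were called in either direction. No member was called higher by edgeR or by DESeq2, where 16.0% of all genes tested were called higher by edgeR. At an unadjusted p under 0.05, for which that share does not hold, 1 member (*Lyz2*) was higher. The 3 C1q chains and *Mrc1* had fold changes near 0. The median log2 fold change was -0.14 over the 10 genes and 0.03 over all genes tested. The RNA comes from whole tissue, so that fewer cells of a type and less RNA per cell cannot be told apart.

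The libraries held between 16729787 and 20819678 counts. *Slc39a14* itself had 260.4 ± 62.5 CPM in WT and 102 ± 32.9 CPM in KO libraries (SD, n = 5 each; log2 fold change -1.35, adjusted p = 0.00184, edgeR), and KO replicate 1 was highest of its group at 160.1 CPM. The groups also differed in genes of other cell types and of the ileum. All 10 smooth muscle genes on a list passed the filter and 9 were higher in KO (median log2 fold change 1.45), with a mean log2 CPM of 6.68 to 7.44 in WT and 8.06 to 9.47 in KO libraries. The 10 enterocyte genes had 6 lower in KO (median -1.74) and a mean of 11.47 to 11.98 in WT and 7.86 to 10.36 in KO. The 3 ileum genes (*Fabp6*, *Fgf15* and *Slc10a2*) were all higher in KO (median 8.44) and summed to between 0.765 and 2.86 CPM in WT and to between 2548 and 9277 CPM in KO. The markers of the KO libraries thus go against the label of proximal intestine, and the segment sampled may differ between groups, so that segment and genotype cannot be told apart in any comparison of KO with WT given here. The mean log2 CPM of 7 B cell genes was 3.72 in WT replicate 5 and between 4.52 and 4.96 in KO replicates 2, 3 and 4, and between -0.23 and 0.66 in the other 6 libraries. The part of these differences in the results on macrophage genes was not tested except where a value is given.

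The receptors came first. *Csf1r* (ENSMUSG00000024621; GRCm38, chromosome 18, 61100598 to 61132149, plus strand), the receptor on which macrophages depend for survival, had 101 CPM, 123 CPM, 116 CPM, 110 CPM and 83.9 CPM in WT replicates 1 to 5. In KO replicates 1 to 5 it had 93.5 CPM, 76.3 CPM, 39.9 CPM, 34.5 CPM and 57.1 CPM. KO replicate 1 lay within the range of the WT libraries, and the other 4 KO libraries were below all of them. The mean was 107 ± 15.2 CPM in WT and 60.2 ± 24.8 CPM in KO (SD, n = 5 each), which the model gave as -0.83 on the log2 scale (standard error 0.25, 95% interval -1.37 to -0.28, adjusted p = 0.0298 by edgeR). With each library left out in turn, *Csf1r* passed the threshold in 5 of 10 fits, and it did not without WT replicate 1, 2 or 3 or KO replicate 3 or 5, where the adjusted p reached 0.0697 at most. In the annotation *Hmgxb3* overlaps *Csf1r* on the other strand and 14.3% of the 50-base stretches of *Csf1r* transcripts also occur there, so that reads of both cannot be separated without knowledge of strand.

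*Cx3cr1* (ENSMUSG00000052336; chromosome 9, 119901616 to 120069879, minus strand), the receptor for the chemokine Cx3cl1 and a marker of resident gut macrophages, had 15.6 CPM, 16.1 CPM, 23.3 CPM, 20.004 CPM and 15.5 CPM in WT replicates 1 to 5. It had 14.9 CPM, 14.2 CPM, 8.80 CPM, 8.67 CPM and 11.2 CPM in KO replicates 1 to 5. No KO library reached the lowest WT library (exact permutation test on log2 CPM, 2-sided p = 0.00794, the smallest that 5 against 5 allow), but by a margin of under 1 CPM for KO replicate 1. The log2 fold change was -0.65 (standard error 0.19, 95% interval -1.07 to -0.23, adjusted p = 0.0256 by edgeR). The call was lost without WT replicate 3, KO replicate 3 or KO replicate 4, with an adjusted p of up to 0.0665. The annotated span of *Cx3cr1* is long and holds genes on both strands.

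*Itgax* (ENSMUSG00000030789; chromosome 7, 128129547 to 128150657, plus strand) encodes the integrin CD11c of dendritic cells and of some macrophages, and it showed the largest change among the 10 genes. WT replicates 1 to 5 had 46.0 CPM, 49.3 CPM, 59.9 CPM, 43.5 CPM and 39.9 CPM. KO replicates 1 to 5 had 38.6 CPM, 15.8 CPM, 15.004 CPM, 12.1 CPM and 28.3 CPM. Each KO library had less than any WT library (exact permutation test, 2-sided p = 0.00794), with KO replicate 1 close under the lowest WT library and KO replicates 2, 3 and 4 far below. The mean was 2.17-fold lower in KO by the edgeR model, a log2 fold change of -1.12 (standard error 0.29, 95% interval -1.76 to -0.48, adjusted p = 0.0160). *Itgax* passed the threshold in all 10 fits that left out 1 library, with log2 fold changes between -1.43 and -0.97. Of the 50-base stretches of its transcripts, 8.02% are shared with *Itgad*. With *Cx3cr1*, it was 1 of 2 members for which all KO libraries were below all WT libraries, where 10.8% of all genes tested were, and no member had all KO libraries above, where 10.2% of all genes tested had.

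**Figure D1:**
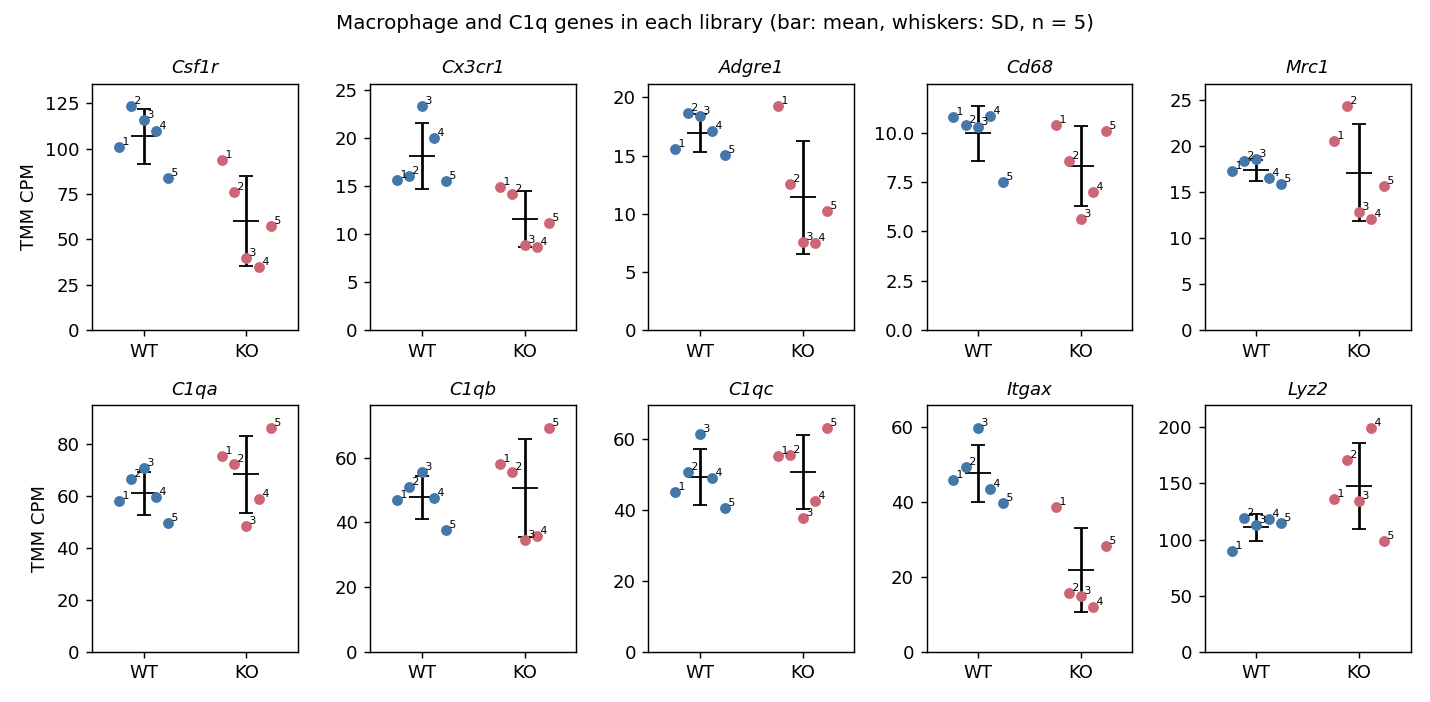
TMM CPM of the 10 genes in each library, with the replicate number beside each point, the group mean as a bar and the SD as whiskers (n = 5 per group). *Itgax* and *Cx3cr1* have no overlap between groups, and the C1q genes overlap, with KO replicates 3 and 4 low and KO replicate 5 high.

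The general macrophage markers were less clear. *Adgre1* (ENSMUSG00000004730; chromosome 17, 57358691 to 57483527, plus strand), which encodes the surface antigen F4/80, had 15.6 CPM, 18.6 CPM, 18.4 CPM, 17.1 CPM and 15.1 CPM in WT replicates 1 to 5. In KO replicates 1 to 5 it had 19.3 CPM, 12.6 CPM, 7.56 CPM, 7.48 CPM and 10.2 CPM. KO replicate 1 was above every WT library and the other 4 KO libraries were below every WT library. The log2 fold change of -0.57 (standard error 0.24, 95% interval -1.10 to -0.04) did not pass the threshold, with an adjusted p of 0.0930 by edgeR. Without KO replicate 1 it was -0.84 with an adjusted p of 0.00503, so that this library decided the call.

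*Cd68* (ENSMUSG00000018774; chromosome 11, 69664213 to 69666153, minus strand), which encodes a lysosomal membrane glycoprotein of phagocytes, had 10.8 CPM, 10.4 CPM, 10.3 CPM, 10.8 CPM and 7.51 CPM in WT and 10.4 CPM, 8.55 CPM, 5.61 CPM, 7.01 CPM and 10.1 CPM in KO replicates 1 to 5. The groups overlapped, with 2 KO libraries near 10 CPM and 2 below the lowest WT library. Its log2 fold change was -0.26 (standard error 0.19, 95% interval -0.67 to 0.15, adjusted p = 0.305 by edgeR). *Mrc1* (ENSMUSG00000026712; chromosome 2, 14229392 to 14332057, plus strand) encodes the mannose receptor CD206 of tissue-resident macrophages. It had 17.3 CPM, 18.4 CPM, 18.6 CPM, 16.6 CPM and 15.9 CPM in WT replicates 1 to 5. It had 20.6 CPM, 24.4 CPM, 12.8 CPM, 12.1 CPM and 15.6 CPM in KO replicates 1 to 5. The means were close, 17.4 ± 1.16 and 17.1 ± 5.28 CPM (SD, n = 5 each), but the KO libraries spread on both sides of the WT range. The 95% interval of its log2 fold change, -0.43 to 0.39, allows a change of moderate size in either direction (log2 fold change -0.02, adjusted p = 0.934 by edgeR).

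The C1q genes lie next to each other on the minus strand of chromosome 4, with *C1qb* (ENSMUSG00000036905) from 136880129 to 136886187, *C1qc* (ENSMUSG00000036896) from 136889804 to 136893065 and *C1qa* (ENSMUSG00000036887) from 136895917 to 136898803. No 50-base stretch of their transcripts occurs in another gene. *C1qa* had 58.2 CPM, 66.7 CPM, 70.9 CPM, 59.9 CPM and 49.8 CPM in WT and 75.6 CPM, 72.6 CPM, 48.6 CPM, 59.1 CPM and 86.5 CPM in KO replicates 1 to 5. *C1qb* had 47.0 CPM, 50.9 CPM, 55.7 CPM, 47.5 CPM and 37.7 CPM in WT and 58.0 CPM, 55.5 CPM, 34.5 CPM, 35.6 CPM and 69.3 CPM in KO replicates 1 to 5. *C1qc* had 45.0 CPM, 50.6 CPM, 61.2 CPM, 48.9 CPM and 40.3 CPM in WT and 55.1 CPM, 55.4 CPM, 37.6 CPM, 42.5 CPM and 63.1 CPM in KO replicates 1 to 5. For each chain KO replicate 5 was the highest of the 10 libraries, KO replicate 3 was the lowest of its group, and the groups overlapped. The log2 fold changes were 0.16 for *C1qa* (95% interval -0.17 to 0.50, adjusted p = 0.436 by edgeR), 0.08 for *C1qb* (-0.34 to 0.51, adjusted p = 0.770) and 0.04 for *C1qc* (-0.30 to 0.38, adjusted p = 0.852). In the fits that left out 1 library, *C1qa* stayed between 0.07 and 0.26, while *C1qb* and *C1qc* changed sign without KO replicate 5 (-0.06 and -0.05), and *C1qc* also without WT replicate 5 (-0.02).

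The proportion of the chains to each other was also examined. Per kilobase of exons, *C1qa* made up between 45.1% and 46.8% of the C1q level in WT libraries and between 46.3% and 50.9% in KO libraries. *C1qb* made up 33.5% to 35.3% in WT and 29.4% to 35.5% in KO, and the mean share of *C1qc* was 19.9% ± 0.811 in WT and 19.1% ± 0.742 in KO (SD, n = 5 each). The KO library farthest from the others was replicate 4, with the highest share of *C1qa* and the lowest of *C1qb*.

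**Figure D2:**
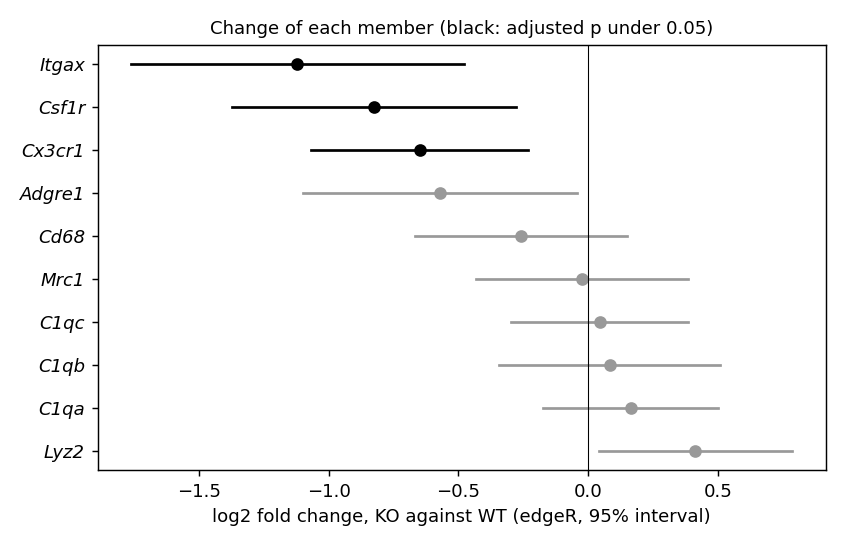
Log2 fold change of KO against WT with its 95% interval for each of the 10 genes, from edgeR's quasi-likelihood model, with called genes in black. The values run from -1.12 (*Itgax*) to 0.41 (*Lyz2*), and the 3 called genes all lie below 0.

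Sequence upstream of the C1q genes is shown because these chains varied together. RefSeq promoters, which span 250 bases before to 50 bases after a gene's start, were given for 7 of the 10 members (GRCm38.p6) and were not given for *Adgre1*, *Csf1r* and *C1qa*. The motif GAGGAA, the core that the macrophage factor PU.1 binds, was searched on both strands and occurs in 28.3% of the 32851 promoters in the table. It was found in 4 of the 7 members, *C1qb*, *C1qc*, *Cd68* and *Mrc1*, and not in this window of *Cx3cr1*, *Itgax* or *Lyz2*. A stretch of 30 bases around the match is printed for *C1qb* (chr4:136886213-136886242, minus strand, match starting 30 bases before the start that RefSeq gives) and for *C1qc* (chr4:136893090-136893119, minus strand, match on the opposite strand starting 193 bases before that start), with the motif or its reverse complement in capitals:
C1qb: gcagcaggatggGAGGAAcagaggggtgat
C1qc: gacggcagacacTTCCTCattttggcacac
These matches describe the sequence only.

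*Lyz2* (ENSMUSG00000069516; chromosome 10, 117277331 to 117282321, minus strand), the lysozyme of macrophages and other myeloid cells, had the highest mean CPM of the 10 genes in both groups, although *Csf1r* was above it in WT replicates 1, 2 and 3. It had 90.1 CPM, 119 CPM, 113 CPM, 118 CPM and 114 CPM in WT replicates 1 to 5. It had 136 CPM, 170.5 CPM, 135 CPM, 199.6 CPM and 98.3 CPM in KO replicates 1 to 5. The first 4 KO libraries were above every WT library and KO replicate 5 was within the WT range. The log2 fold change of 0.41 (standard error 0.17, 95% interval 0.04 to 0.79) missed the threshold with an adjusted p of 0.0860 by edgeR. It was 0.53 without KO replicate 5 (adjusted p = 0.0193) and 0.54 when counts were scaled to library size only (adjusted p = 0.0462).

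The neighbouring gene *Lyz1* (ENSMUSG00000069515; chromosome 10, 117287797 to 117292868, minus strand) encodes the lysozyme of Paneth cells, the antimicrobial cells of the crypts. Its coding sequence has 447 bases, like that of *Lyz2*, and is 95.1% identical to it, with 22 differing bases and an identical run of 118 bases. Bases 61 to 120 of both coding sequences (GENCODE M21) are printed because reads of these genes can only be separated at such differences, which are in capitals:
Lyz1: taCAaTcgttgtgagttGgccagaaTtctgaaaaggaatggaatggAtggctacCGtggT
Lyz2: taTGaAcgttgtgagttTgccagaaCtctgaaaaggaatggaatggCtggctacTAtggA
Of the 50-base stretches of *Lyz2* transcripts, 15.4% occur in *Lyz1* as well. *Lyz1* had 5187 CPM, 2825 CPM, 2468 CPM, 7982 CPM and 7787 CPM in WT and 11139 CPM, 3404 CPM, 2604 CPM, 4135 CPM and 2691 CPM in KO replicates 1 to 5 (log2 fold change -0.13, adjusted p = 0.855 by edgeR). *Lyz1* counts were therefore 21.9 to 68.1 times those of *Lyz2* in WT and 19.4 to 81.8 times in KO libraries, and *Lyz2* is reported as uncertain, since a small share of *Lyz1* reads assigned to *Lyz2* would change its value. Over the 10 libraries, *Lyz1* was highest in KO replicate 1 and *Lyz2* in KO replicate 4. In WT replicate 4 *Lyz1* was the highest of its group, and *Lyz2* was at 118 CPM, near the highest WT value of 119 CPM. Assignment of *Lyz1* reads to *Lyz2* was not tested.

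Levels of different genes were compared per kilobase of exons. In all 5 WT libraries the order was *Lyz2*, *C1qa*, *C1qb*, *C1qc*, *Csf1r*, *Itgax*, *Cd68*, *Adgre1*, *Cx3cr1* and *Mrc1*, from 84.3 ± 9.11 CPM per kilobase for *Lyz2* to 2.73 CPM per kilobase for *Mrc1*. The ranges over the WT libraries overlapped for the neighbours *C1qa* and *C1qb*, *C1qc* and *Csf1r*, *Itgax* and *Cd68*, and *Adgre1* and *Cx3cr1*, although within each library the order held. *Itgax* was at 9.94 ± 1.59 and *Cd68* at 7.92 ± 1.11 CPM per kilobase in WT. In all 5 KO libraries *Itgax* was below *Cd68*, at 4.57 ± 2.33 against 6.62 ± 1.61 CPM per kilobase (SD, n = 5 each). In KO the ranges of all neighbours overlapped except *C1qc* and *Csf1r*, and in KO replicate 5 *C1qa* was above *Lyz2*.

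Ratios within a library do not depend on how libraries were scaled. Per kilobase, *C1qa* was at 3.20, 2.997, 3.40, 3.04 and 3.30 times the level of *Csf1r* in WT replicates 1 to 5 and at 4.49, 5.28, 6.76, 9.52 and 8.41 times in KO replicates 1 to 5. The WT ratios lay close together, every KO ratio was above them, and KO replicate 1 was nearest to WT. The ratio of *C1qa* to *Adgre1* was 10.3 to 12.01 in WT and 12.2 to 26.3 in KO, and that of *C1qa* to *Cd68* was 6.51 to 8.34 in WT and 8.82 to 10.5 in KO, again without overlap. The ratio of *C1qa* to *Mrc1* overlapped between groups, at 19.2 to 23.3 in WT and 18.2 to 33.9 in KO. *Mrc1* was at 0.135 to 0.172 times the level of *Csf1r* in WT and at 0.200 to 0.317 times in KO. The ratios of *Itgax*, *Adgre1* and *Cx3cr1* to *Csf1r* overlapped between groups, so that these genes were not separated from *Csf1r* by ratio. *Itgax* was at 0.157 to 0.183 times the level of *C1qa* in WT and at 0.0442 to 0.111 times in KO. *Lyz2* was at 3.92 to 5.98 times *Csf1r* in WT and at 6.39 to 25.4 times in KO. Each of these ratios holds *C1qa* or *Csf1r*, so that they are not separate observations. The share of other gene pairs without overlap was not computed, and no test was made of the ratios.

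**Figure D3:**
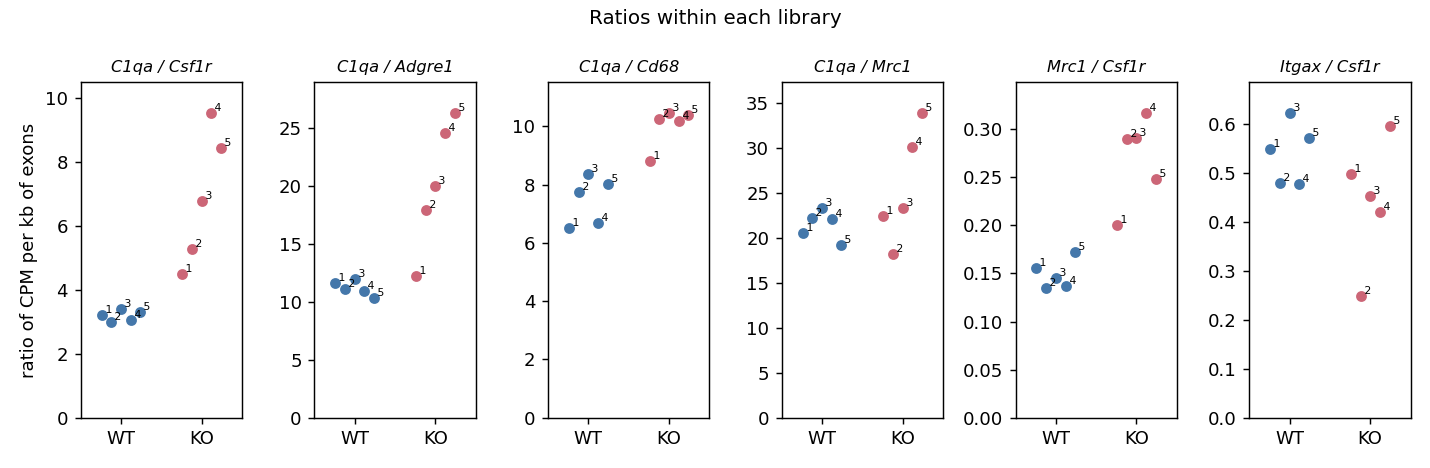
Ratios of pairs of genes within each library, each gene as CPM per kilobase of exons, with the replicate number beside each point. *C1qa* against *Csf1r*, *Adgre1* or *Cd68* and *Mrc1* against *Csf1r* are higher in all KO libraries, while *C1qa* against *Mrc1* and *Itgax* against *Csf1r* overlap.

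The values of the members in single KO libraries were set beside the scores of other cell types. KO replicates 2, 3 and 4, which were high in B cell genes, had the 3 lowest values of *Itgax*, but KO replicate 2 had the highest *Mrc1* of all libraries and more *C1qa* than any WT library. KO replicates 3 and 4 had the lowest values of the KO group for every member except *Lyz2*. KO replicate 4 also had the highest mean of smooth muscle genes, 9.47 on the log2 CPM scale, and KO replicate 5 had the lowest mean of enterocyte genes, 7.86. With the B cell score in the edgeR model, *Itgax* remained lower (log2 fold change -0.78, adjusted p = 0.0190) and no other member was called, where 975 of the 15610 genes were called higher and 1113 lower. In the 4 WT and 2 KO libraries with a B cell score under 2, a choice made after seeing the data, no member was called (2 higher and 3 lower at an unadjusted p under 0.05), where 544 of 15967 genes were called higher and 582 lower, and the log2 fold changes were -0.57 for *Itgax* (adjusted p = 0.0965, edgeR), -0.58 for *Csf1r* (0.119) and 0.34 for *C1qa*. When the score of smooth muscle genes was added to the edgeR model, no member was called (3 higher and 0 lower at an unadjusted p under 0.05). In that model 10 of the 15610 genes were called higher and 8 lower, so that the count of 0 says nothing particular about the members, and *Csf1r* was at 0.19 (standard error 0.29) and *Itgax* at -0.19. The smooth muscle score did not overlap between groups, and its part and that of the genotype cannot be told apart by this model.

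The ligands of the receptors were measured in the same libraries. *Il34*, the alternative ligand of Csf1r, had 8.46 CPM, 9.63 CPM, 9.10 CPM, 8.79 CPM and 9.19 CPM in WT and 4.56 CPM, 7.45 CPM, 6.15 CPM, 3.34 CPM and 6.35 CPM in KO replicates 1 to 5. All KO libraries were below all WT libraries (log2 fold change -0.70, standard error 0.20, adjusted p = 0.0231 by edgeR), and the call was lost in 1 of 10 fits with a library left out, that without WT replicate 2 (adjusted p = 0.0545). *Csf1*, the main ligand, had 21.8 ± 3.10 CPM in WT and 18.2 ± 2.19 CPM in KO (log2 fold change -0.26, adjusted p = 0.132). *Cx3cl1*, the ligand of Cx3cr1 made by epithelial and endothelial cells, had 119 ± 17.9 CPM and 97.9 ± 24.5 CPM (log2 fold change -0.28, adjusted p = 0.237).

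Of 11 transcription factors of the macrophage lineage, all tested, 1 was higher and 2 were lower in KO, with a median log2 fold change of 0.11. *Cebpb*, a factor of myeloid and inflammatory genes, had between 21.8 and 27.6 CPM in WT and between 12.04 and 17.97 CPM in KO libraries. The groups did not overlap, and it was lower in KO (log2 fold change -0.69, adjusted p = 0.00368 by edgeR). *Cebpa*, which is needed for early myeloid cells and is also active in other tissues, was higher (65.1 ± 8.92 against 101.5 ± 20.8 CPM, adjusted p = 0.00875). *Maf*, *Klf4* and *Irf8* were not called, with log2 fold changes of 0.11, 0.26 and 0.19. *Cebpa* and *Klf4* are also expressed by other cells of the intestine.

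Of 24 other macrophage genes, 22 were tested, 2 were higher and 3 lower in KO by edgeR, with a median log2 fold change of -0.38. DESeq2 called 3 higher and 4 lower. *Mertk*, a receptor for the uptake of dying cells, had 115 CPM, 179 CPM, 141 CPM, 114 CPM and 147 CPM in WT and 62.2 CPM, 65.4 CPM, 54.2 CPM, 65.0 CPM and 60.1 CPM in KO replicates 1 to 5. The KO libraries lay close together below all WT libraries (log2 fold change -1.18, adjusted p = 0.000263, edgeR). In the same KO libraries *Csf1r* ran from 34.5 to 93.5 CPM, and the cells that held *Mertk* RNA were not tested. The scavenger receptor genes *Stab1* (78.6 ± 11.8 against 42.6 ± 17.2 CPM, adjusted p = 0.0158) and *Msr1* (9.51 ± 2.51 against 4.89 ± 1.84 CPM, adjusted p = 0.0236) were lower too, the latter not without WT replicate 2 or 3. *Cd14*, a co-receptor for bacterial lipopolysaccharide, moved the other way. It had between 4.96 and 5.94 CPM in WT and between 10.1 and 16.5 CPM in KO libraries (log2 fold change 1.35, adjusted p = 0.000286 by edgeR). *Clec10a*, a lectin of macrophages and dendritic cells, was higher at a low level (1.143 ± 0.327 against 2.72 ± 1.001 CPM, adjusted p = 0.0133). The abundant lysosomal genes *Ctss* and *Lgmn* were not called, with log2 fold changes of -0.02 and 0.21.

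**Figure D4:**
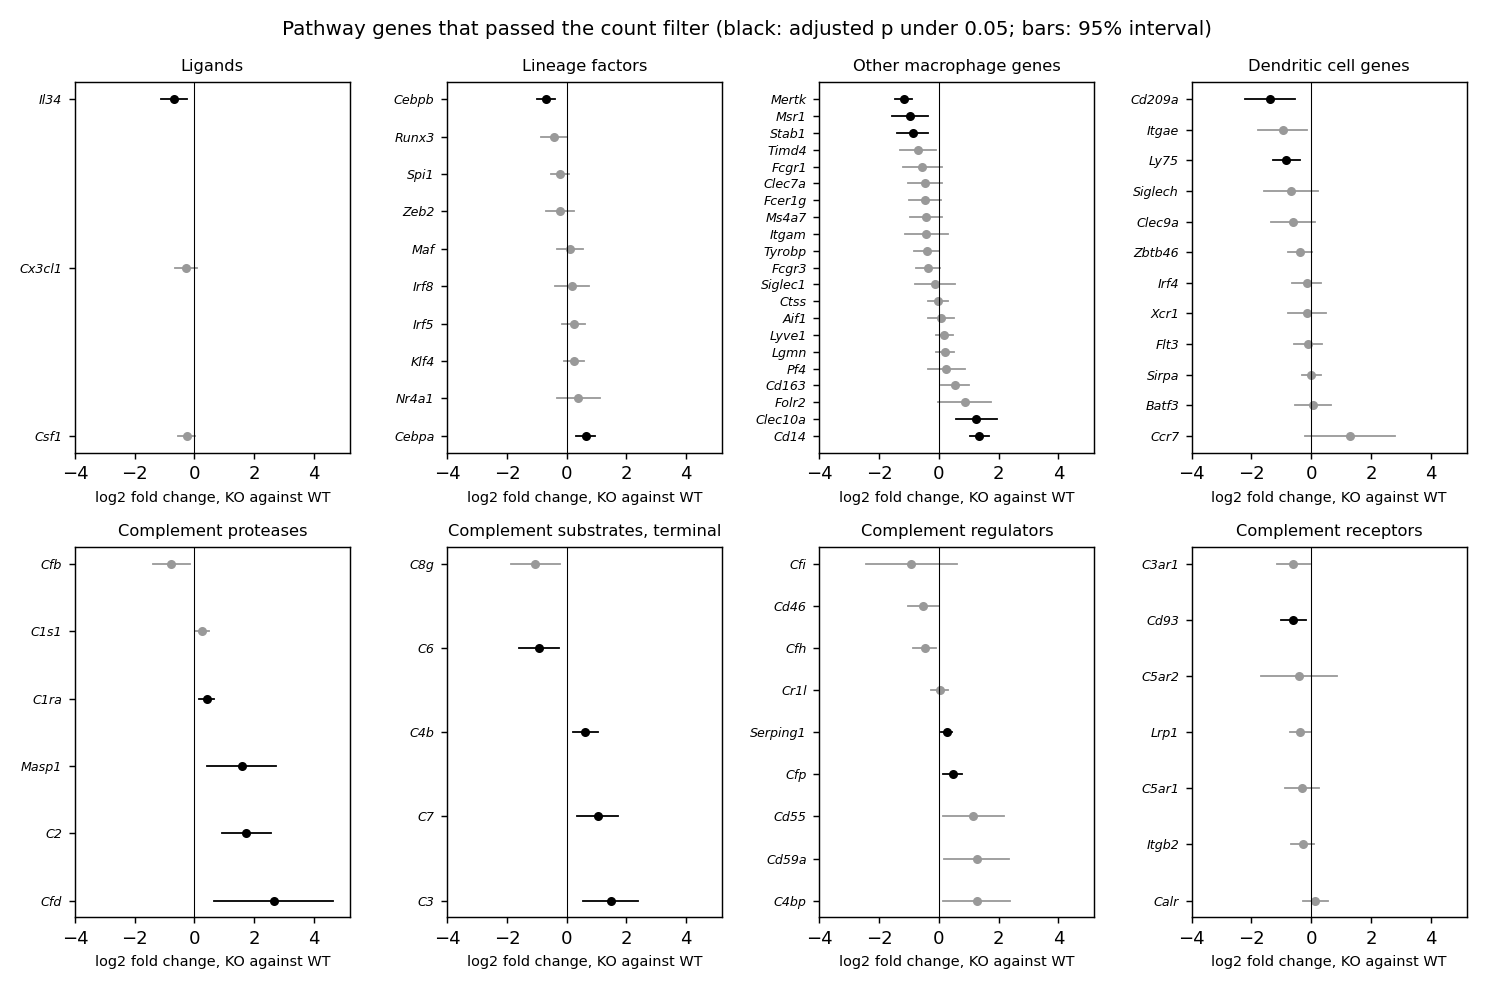
Log2 fold changes of KO against WT with 95% intervals for the tested genes reported here of 8 lists (ligands, lineage factors, other macrophage genes, dendritic cell genes and the 4 complement lists), with called genes in black. Called genes of the complement proteases lie above 0 (0.41 to 2.65), and those of the dendritic cell list lie below 0.

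Other complement genes were described by list. Of 9 complement protease genes, 6 were tested, 4 were higher and none was lower by edgeR (1 was lower at an unadjusted p under 0.05 and 1 by DESeq2), and the median log2 fold change was 0.99. *C1ra*, whose product is the protease bound to C1q, had 19.4 ± 1.99 CPM in WT and 25.7 ± 3.79 CPM in KO, with all KO libraries above all WT libraries (log2 fold change 0.41, adjusted p = 0.0271 by edgeR), and passed in 5 of 10 fits with a library left out. Its partner *C1s1* had 33.8 ± 3.33 and 40.5 ± 4.07 CPM and was not called (log2 fold change 0.26, adjusted p = 0.0735). *C2*, which forms the C3 convertase of the classical pathway, had 2.23 CPM, 1.91 CPM, 1.98 CPM, 2.53 CPM and 2.75 CPM in WT and 5.52 CPM, 5.09 CPM, 3.08 CPM, 10.3 CPM and 14.1 CPM in KO replicates 1 to 5. All KO libraries were above all WT libraries, and the log2 fold change was 1.74 (adjusted p = 0.00669, edgeR). *Masp1* of the lectin pathway (log2 fold change 1.58, adjusted p = 0.0435) and *Cfd* of the alternative pathway (2.65, adjusted p = 0.0466) were called with wide spreads, *Cfd* being an abundant product of fat cells, and each held in 3 of 10 fits with a library left out. *Cfd* had 268 CPM, 126 CPM and 359.8 CPM in KO replicates 2, 3 and 4, the KO libraries high in B cell genes. In KO replicates 1 and 5 it had 26.4 CPM and 27.2 CPM, within the WT range of 2.81 to 68.5 CPM, and in libraries with a B cell score under 2 its log2 fold change was -0.15 (adjusted p = 0.934, edgeR). *Cfb* of the alternative pathway was at -0.77 and not called (adjusted p = 0.0573).

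Of 7 substrates and terminal components, 5 were tested, 3 were higher and 1 was lower, with a median of 0.63. *C3*, the central component, had 64.7 ± 36.5 CPM in WT and 179 ± 79.3 CPM in KO (log2 fold change 1.47, adjusted p = 0.0233 by edgeR), and passed in 8 of 10 fits with a library left out, but not without WT replicate 3 (adjusted p = 0.0574) or KO replicate 2 (0.0519). The 3 KO libraries above every WT library were replicates 2, 3 and 4 (284.6 CPM, 201 CPM and 208 CPM), which were high in B cell genes, and KO replicates 1 and 5 had 85.1 CPM and 117 CPM. The highest WT library was replicate 5 (119.97 CPM), the WT library high in B cell genes. With the B cell score in the edgeR model *C3* was at 0.82 and not called (adjusted p = 0.105), and in libraries with a score under 2 it was at 0.98 (adjusted p = 0.143). *C4b*, which C1s cleaves, had 41.7 ± 3.58 and 64.4 ± 20.2 CPM (adjusted p = 0.0303), *C7* had 3.69 ± 0.961 and 7.62 ± 3.58 CPM (adjusted p = 0.0289), and *C6* was lower (9.68 ± 2.93 against 5.12 ± 2.11 CPM, adjusted p = 0.0421). *C4b*, *C7* and *C6* held in 3, 5 and 3 of 10 fits with a library left out. *C8g* was not called (log2 fold change -1.05, adjusted p = 0.0540).

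All 9 complement regulators were tested, 2 were higher and none was lower by edgeR, with a median of 0.25. At an unadjusted p under 0.05 there were 5 higher and 2 lower, and DESeq2 called 5 higher and 1 lower. *Serping1*, the inhibitor of C1r and C1s, had 67.2 ± 1.56 CPM in WT and 80.2 ± 7.63 CPM in KO (log2 fold change 0.25, adjusted p = 0.0335), and properdin (*Cfp*) had 9.47 ± 0.696 and 13.1 ± 2.62 CPM (adjusted p = 0.0352), and each held in 3 of 10 fits with a library left out. *Cr1l*, *Cd55* and *Cd59a* were not called, with log2 fold changes of 0.03, 1.16 and 1.26. Of 8 complement receptor genes, 7 were tested, 1 was lower and none was higher (0 also at an unadjusted p under 0.05 and by DESeq2), with a median of -0.36. The lower gene was *Cd93*, a receptor first described for C1q that endothelial cells also express (25.6 ± 1.39 against 16.9 ± 5.44 CPM, adjusted p = 0.0373 by edgeR, held in 2 of 10 fits with a library left out). *Calr*, *Lrp1* and *Itgb2* were not called, with log2 fold changes of 0.13, -0.36 and -0.29.

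Dendritic cell genes were listed because *Itgax* marks these cells as well. All 12 were tested, 2 were lower and none was higher by edgeR (0 also at an unadjusted p under 0.05 and by DESeq2), with a median of -0.27. Of all genes tested, 13.9% were lower by edgeR. *Ly75*, the endocytic receptor DEC-205, had 82.4 ± 8.11 CPM in WT and 46.4 ± 15.5 CPM in KO, with all KO libraries below all WT libraries (log2 fold change -0.83, adjusted p = 0.0131 by edgeR). *Ly75* alone had 71.3 to 93.3 CPM in WT libraries, where the 12 genes together summed to between 159 and 200 CPM. The cells that held its RNA were not tested, and 10 genes of the list were not called. *Cd209a*, a lectin of dendritic cells, had 3.78 ± 0.933 CPM in WT and 1.45 ± 0.917 CPM in KO (adjusted p = 0.0202 by edgeR). It passed in 9 of 10 fits with a library left out, and not without WT replicate 3 (adjusted p = 0.0504, edgeR). *Itgae*, which intraepithelial T cells also carry, was at -0.95 and not called (adjusted p = 0.0755), and *Sirpa* and *Irf4* were at 0.01 and -0.15.

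Genes of newly arrived cells were mostly too low to be tested. Of 15 monocyte and neutrophil genes, only 6 passed the filter, 1 was lower and none was higher (0 also at an unadjusted p under 0.05 and by DESeq2), with a median of 0.03. *Ccr2*, the receptor that brings monocytes into tissue, had 6.23 ± 1.95 CPM in WT and 7.67 ± 1.95 CPM in KO (log2 fold change 0.30, adjusted p = 0.383 by edgeR). *Plac8*, which gut epithelium also expresses, was the lower gene, at 1327 ± 207 against 546 ± 162 CPM (adjusted p = 0.00156). The neutrophil genes differed in level, as 4 chosen after their values were seen show. *S100a8* had 6 counts summed over the WT and 6 over the KO libraries. *Ly6g* had 0 and 16, with the 16 counts in only 2 KO libraries, at 0.702 CPM at most. *Retnlg* had between 2.75 and 4.12 CPM in WT libraries, 3.55 CPM, 5.67 CPM and 5.99 CPM in KO replicates 1 to 3, and 0.0953 CPM and 0.0525 CPM (2 counts and 1 count) in KO replicates 4 and 5 (adjusted p = 0.992 by edgeR). The KO group was split, with 2 libraries above every WT library and 2 below. *Csf3r* had 3.29 ± 0.716 and 2.27 ± 0.799 CPM (adjusted p = 0.129). A count of 0 allows up to 3 counts per library at 95% confidence. Of 7 chemokines that attract monocytes, 4 were tested, 1 was higher and none was lower (0 also at an unadjusted p under 0.05 and by DESeq2), with a median of 0.35. The higher gene, *Ccl8*, had between 0.408 and 0.785 CPM in WT, 1.296 CPM and 0.905 CPM in KO replicates 1 and 4, and 8.97 CPM, 8.26 CPM and 10.5 CPM in KO replicates 2, 3 and 5 (log2 fold change 3.23, adjusted p = 0.00580 by edgeR). *Ccl5*, which T cells also make, was at -0.47 and not called.

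Genes shared by leukocytes were counted as well. Of 8 pan-leukocyte genes, all tested, 1 (*Cd52*, log2 fold change 0.52, adjusted p = 0.0336 by edgeR) was higher and none was lower (0 also at an unadjusted p under 0.05 and by DESeq2), with a median of 0.33. *Ptprc*, which encodes the leukocyte antigen CD45, had 78.1 ± 11.8 CPM in WT and 72.0 ± 26.0 CPM in KO (log2 fold change -0.12, adjusted p = 0.714). Of the B cell, T cell and Paneth cell genes, 5, 8 and 7 were tested, with medians of 1.77, -0.30 and 0.49, and none was called by edgeR, although at an unadjusted p under 0.05 there were 2 B cell genes higher, 1 T cell gene higher and 3 lower, and 2 Paneth cell genes higher, and DESeq2 called 1 B cell gene and 1 Paneth cell gene higher and 1 T cell gene lower. Of the 6 mast cell genes 3 were tested and 1, *Cpa3*, was lower by edgeR, with a median of -1.68, while DESeq2, with its own filter, called 5 lower.

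Genes with a profile over the 10 libraries most like that of the C1q chains were found by the root mean square difference of centred log2 CPM, over 15600 other genes tested. The nearest to the mean of the 3 chains were *Bop1* (0.122), *Faap24* (0.122), *Slfn2* (0.129), *Tmem39b* (0.134) and *Parp10* (0.138), where the median over all genes was 0.417. The nearest to *Itgax* were *Chp2* (0.183), *Mtmr4* (0.208), *Myo7a* (0.217), *Adap2* (0.220) and *Mmp10* (0.224), where the median was 0.831. These differences are on the log2 CPM scale and describe the same 10 libraries.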

How the data were processed

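RNA-seq libraries from 5 WT and 5 KO mice, of proximal intestine and prepared with a SMARTer mRNA-Seq kit per the labels, were analysed. Ileum genes were high in KO libraries, and the segment sampled may differ between groups. Each deposited file holds raw read counts for Ensembl gene IDs, which the authors did not normalize. The submitters' processing notes name FastQC 0.11.9, Trimmomatic, HISAT2 2.0.4, SAMtools 1.3.1, DESeq2 1.14.1 and the builds GRCm38 and mm10. The read counter, its annotation and its use of strand were not given in the sources used here, so that reads of overlapping genes may be counted for either gene.

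IDs were named by GENCODE M21 (GRCm38), which matched 34490 of 35275 IDs. The other 785 were kept in the test (0.0729% to 0.0827% of each library's counts). All 174 genes on 19 lists were matched, 0 columns of samples were left unused, and no libraries were identical. Totals were 16729787 to 20819678 counts, and intervals and limits cover counting error only where they rest on counts. Tools were edgeR 4.0.16, DESeq2 1.42.0 and limma 3.58.1 in R 4.3.3. TMM normalization and the quasi-likelihood test of edgeR were applied to the 15610 genes that filterByExpr kept (at a minimum count of 10 and a minimum total of 15), and p-values were adjusted by Benjamini-Hochberg over these genes, at a threshold of 0.05. Log2 CPM had a prior count of 2. Exact permutation tests were 2-sided. Nothing says that the mice came from separate litters, and p-values measure the spread between these samples.

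Named genes were the 10 members, their ligands, *Lyz1*, *Ptprc*, *Ccr2*, *Slc39a14*, in every companion list of the macrophage and complement genes up to 8 called and 3 uncalled genes with the highest mean CPM, and the 5 nearest profiles. Some genes that the rule names are not reported here, but count in their lists. The members, lists and rule were chosen with earlier results of these data known. Alternatives were RLE normalization, library size only, no filter, DESeq2, robust dispersion, a mean count of 10 or more, each library left out, the replicate number as a block, and a smooth muscle or B cell score (the mean log2 CPM of the list) in the model. The scripts were tested on simulated data.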

Additional observations from a re-analysis of the deposited data

Results flagged for a closer look

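In groups of 5 libraries, 5 values stood apart from the other 4 of their group by Dixon's test at 95%, among 78 groups examined over 39 genes. Chance flags about 1 in 20 groups, which gives 3.9 here. *Cd68* had 7.51 CPM in WT replicate 5 and 10.3 to 10.8 CPM in the other WT libraries. *Lyz2* had 90.1 CPM in WT replicate 1 and 113 to 119 CPM in the others. *Lyz1* had 11100 CPM in KO replicate 1 and 2600 to 4130 CPM in the other KO libraries. *Slc39a14* had 160 CPM in KO replicate 1 and 78.5 to 93.8 CPM in the others, and the same library was nearest to WT in *Csf1r*, *Itgax*, *Adgre1* and the ratio of *C1qa* to *Csf1r*. *Cd93* had 23.3 CPM in WT replicate 5 and 25.8 to 26.8 CPM in the others.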

How the results depend on the processing

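The same 3 members were lower and none was higher with RLE normalization, no filter, DESeq2, robust dispersion and a mean count of 10 or more. Scaling to library size only added *Lyz2*, so that 1 member was higher, and moved the median log2 fold change of all genes by 0.12 and the higher share of calls from 53.5% to 69.4%. The number of members called lower was 1 to 4 and higher 0 to 1 with each library left out, and over all genes 1634 to 2944 were higher and 1573 to 2563 lower. Without WT replicate 3 or KO replicate 3 only *Itgax* was called lower, and leaving out WT replicate 2 gave the lowest count of higher genes. The labels do not say that replicate numbers pair the mice. Same-numbered libraries had correlations of deviations from -0.17 to 0.18, and 1 of 5 (replicate 4) was above 0.1. Such correlations cannot exclude a pairing. With a replicate block, 2 members were lower (*Csf1r* and *Itgax*; *Cx3cr1* -0.66, adjusted p = 0.0712), and 1950 genes were higher and 1898 lower.

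With the smooth muscle score, 0 members (3 higher at an unadjusted p under 0.05), 10 genes higher and 8 lower were called by edgeR; with the B cell score 1 member lower, 975 genes higher and 1113 lower; in libraries with a B cell score under 2 (chosen after seeing the data, with fewer samples), 0 members lower (3 unadjusted), 544 genes higher and 582 lower. Signs reversed, in log2 fold change, as follows. With the smooth muscle score *Adgre1* was 0.23, *Csf1r* 0.19, *Cd68* 0.23, *Mrc1* 0.67, *Cx3cl1* 0.53, *Ptprc* 0.091, *C6* 0.36 and *Ly75* 0.064. With the B cell score *Cd68* was 0.0063 and *Mrc1* 0.070, and with that score under 2 *Mrc1* was 0.032, *Lyz1* 0.59 and *Cfd* -0.15. By library size only *Mrc1* was 0.10 and *Ptprc* 0.022. Leaving out a library gave *C1qb* -0.057 to 0.19, *C1qc* -0.047 to 0.13, *Mrc1* -0.19 to 0.081, *Lyz1* -0.71 to 0.057 and *Ptprc* -0.29 to 0.020. The causes were not tested. Of all fold changes of named genes under alternatives, 597 kept direction and side of the threshold, 154 lost it, 3 gained it and 26 reversed.

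Limits: the groups differ in smooth muscle, enterocyte and ileum genes, some libraries of both groups are high in B cell genes, the segment sampled and the genotype cannot be told apart, and libraries are of whole tissue. The lowest count of a member in a library was 104 (*Cd68*, KO replicate 3).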
